A study of Capra hircus with 9 samples.

Results

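Oxidative phosphorylation was followed through the genes of its subunits, from both genomes that encode them, in the uterus of Liaoning Cashmere goats (Capra hircus), a fibre breed. Members were rows of the deposited count table chosen by gene symbol: the protein-coding genes of the mitochondrial genome (ND1 to ND6, ND4L, COX1 to COX3, ATP6, ATP8 and CYTB), and nuclear genes whose symbols follow the patterns of subunits NDUFA, NDUFB, NDUFC, NDUFS, NDUFV, SDHA to SDHD, UQCR, COX4 to COX8 and ATP5. This gave 70 of 25671 rows, 13 mitochondrial and 57 nuclear. Assigned to complexes by symbol alone, the nuclear rows were 36 of complex I, with NDUFA4 counted there by its name only, 4 of complex II and 17 of complex V. No row had a UQCR or COX4 to COX8 symbol, because the table lists nuclear subunits of complexes III and IV under locus identifiers. Those rows were found afterwards by the table's own descriptions, stand outside the members and are given separately. The patterns also take in ATP5S and ATP5SL, which are not classical subunits of ATP synthase. Of the mitochondrial rows, 12 are typed as noncoding RNA and 1, COX1, as transfer RNA in the table, and all 13 lie on the mitochondrial chromosome of the RefSeq gene table for assembly ARS1.2.

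The libraries fall into groups of day 6, day 16 and day 19, each described as peri-implantation, with 3 libraries a day and no treatment or allele stated. The labels do not give the event from which the days are counted. They name the tissue as uterus, while the series title speaks of endometrial epithelium and the treatment protocol of testis. Whether different animals gave the 3 libraries of a day is not stated, and the p-values therefore reflect variation among these libraries that may be technical.

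As background, complexes I to IV of the inner mitochondrial membrane pass electrons from NADH and succinate to oxygen. All of them but complex II pump protons, and complex V, ATP synthase, uses the proton gradient to make ATP. The mitochondrial genome encodes a few hydrophobic core subunits of complexes I, III, IV and V, transcribed inside the organelle as long precursors, while all other subunits, and the whole of complex II, come from nuclear genes and are imported. Assembly therefore draws on transcripts of both genomes. In ruminants the peri-implantation uterus receives an elongating conceptus, and its lining and stroma are remodelled as attachment begins.

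The libraries held 8712751 to 11074693 counts and 18530 to 19243 detected genes. Markers of smooth muscle and stromal fibroblasts were abundant in every library, with summed levels of 7896 to 40807 and 13459 to 23050 counts scaled to equal library size (CPM), and 5 epithelial markers summed to 661 to 1382 CPM. Only 1 of 5 testis germ cell markers passed the low-count filter, SYCP3 and TNP1 were at 0 in all 9 libraries, and the whole list summed to at most 1.98 CPM. Day 19 replicate 1 stood apart from replicates 2 and 3: cytosolic ribosomal protein genes took 2.79% of its counts against 7.42% and 6.38%, with 4.14% to 4.87% on the earlier days. Results are therefore given with and without it. Levels below are CPM after edgeR's TMM scaling, and gene lengths were not used, so levels are compared between libraries and not between genes.

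The share of counts from the mitochondrial genome was lower on each later day, whereas the nuclear share was lower at day 16 and split at day 19. Summed over the 13 mitochondrial genes, the share of all counts in replicates 1, 2 and 3 was 2.91%, 3.00% and 3.27% at day 6, 1.94%, 2.01% and 2.11% at day 16, and 0.639%, 1.54% and 1.34% at day 19. No library of one day overlapped with those of another. The 57 nuclear members together took 0.508%, 0.491% and 0.496% at day 6, 0.441%, 0.409% and 0.416% at day 16, and 0.362%, 0.730% and 0.659% at day 19. Day 16 lay below day 6 without overlap, whereas day 19 was split, with replicate 1 below and replicates 2 and 3 above every earlier library. In bulk samples, fewer cells of a mitochondria-rich type and less mitochondrial RNA per cell cannot be told apart. The 95% Wilson interval of each share is at most 0.0111 percentage points to either side, and covers counting error only.

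The ratio of the 2 totals also separated the days, with day 19 far below the others. There were 5.73, 6.10 and 6.59 mitochondrial counts per nuclear count in the day 6 libraries, 4.41, 4.93 and 5.07 at day 16, and 1.76, 2.10 and 2.03 at day 19. The means were 6.14 ± 0.428, 4.80 ± 0.351 and 1.97 ± 0.178 (SD, n = 3 each). Although day 19 replicate 1 had the lowest share of both genomes among the 9 libraries, its ratio lay near those of replicates 2 and 3. On the log2 scale the mean ratio was 2.62 ± 0.10 at day 6, 2.26 ± 0.11 at day 16 and 0.97 ± 0.13 at day 19. These sums over chosen members are a description and were not tested.

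**Figure D1:**
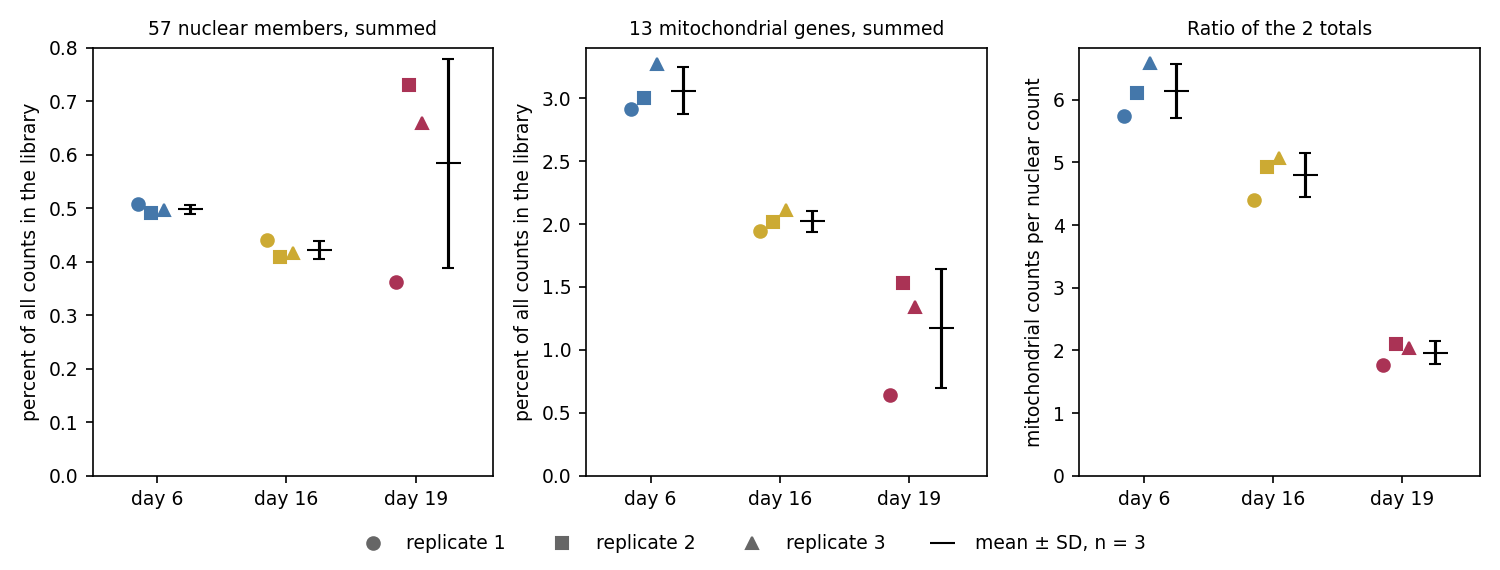
Share of all counts taken by the 57 nuclear members and by the 13 mitochondrial genes (percent), and the ratio of the 2 totals, for each of the 9 libraries by day. Points are libraries and bars are mean ± SD (n = 3); the mean ratio is 6.14, 4.80 and 1.97 on days 6, 16 and 19 without overlap, while the nuclear share at day 19 spans 0.362% to 0.730%.

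The same order held within the 2 complexes that both genomes build and the members cover. For complex I, mitochondrial counts per nuclear count ranged between 3.60 and 3.79 at day 6, between 2.54 and 3.32 at day 16 and between 0.815 and 0.889 at day 19, again without overlap. For complex V they were 1.67 to 1.86, 1.53 to 1.81 and 0.615 to 0.881, so that day 6 and day 16 overlapped and day 19 lay below both. In complex V the lowest ratio was that of day 19 replicate 1, at 0.615 against 0.881 and 0.869 in the other 2 day 19 libraries.

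Single genes were tested with edgeR's quasi-likelihood test, with Benjamini-Hochberg adjustment over all 16098 genes tested and a threshold of 0.05, and a gene is said to be called or to pass by that test where no other tool is named. All 70 members passed the low-count filter. Between day 6 and day 16, 8.86% of all genes were called, 5.12% higher and 3.74% lower, and 0 members were called. At an unadjusted p under 0.05 there were 3 mitochondrial and 1 nuclear member, beside 21.1% of all genes, DESeq2 called 1 mitochondrial member lower (5.35% of all genes) and 0 nuclear, and voom with sample quality weights called 8 and 8 lower (11.0%). The fitted changes leaned down: 13 of 13 mitochondrial members, with a median log2 fold change of -0.54, and 49 of 57 nuclear members, with a median of -0.21, against -0.00 over all genes. At day 16, 10 mitochondrial and 20 nuclear members lay below all day 6 libraries, beside 18.8% of all genes, and 1 nuclear member, NDUFB11, lay above them, beside 19.9%. The day 16 calls also turned on a day 19 library, which enters through the shared estimate of spread, the filter and the scaling. Without day 19 replicate 1, 9 nuclear members (9.67% of all genes were then called lower) and 6 mitochondrial members were called, all lower, and the same counts were obtained with only the day 6 and day 16 libraries.

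Between day 16 and day 19, 1.2% of all genes were called, 0.516% higher and 0.683% lower. Among members, NDUFB9 and NDUFA5 rose and ND4L and ND5 fell. All 57 nuclear members had a fitted change above 0, with a median of 0.73, and 10 of 13 mitochondrial members one below 0, with a median of -0.51, against 0.01 over all genes. Groups did not overlap for 10 nuclear members that were higher (11.9% of all genes) and 6 mitochondrial members that were lower (12.1% of all genes). Without day 19 replicate 1, 54 of 57 nuclear members rose, against 21.6% of all genes. In that fit 6 mitochondrial genes fell (ND4, ND5, ND4L, CYTB, COX3 and ATP8; 23.1% of all genes) and 3 rose (ND2, ND6 and COX2). With all 9 libraries the 4 calls were near the threshold: 0 members were called with only the libraries of the 2 days, at most 1 without any library other than day 19 replicate 1, and DESeq2 called 12 nuclear members higher (5.67% of all genes) and 3 mitochondrial members lower (4.78%). With voom, 52 nuclear members were higher (22.0%) and 6 mitochondrial members lower (23.3%).

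Between day 6 and day 19, which shares its libraries with the comparisons above, 7 of 13 mitochondrial genes fell, against 10.2% of all genes, and 3 of 57 nuclear members rose, against 12.7% (22.9% in either direction). The mitochondrial genes were ND4L, ND5, ND4, ATP8, COX1, COX3 and CYTB, and the nuclear ones NDUFB9, NDUFA5 and NDUFB11. The median log2 fold change was -1.20 over the mitochondrial and 0.57 over the nuclear members, and 0.02 over all genes. Groups did not overlap for 8 mitochondrial members that were lower (the 7 called and ATP6, beside 18.9% of all genes) and 5 nuclear members that were higher (19.6%). Mitochondrial calls numbered 3 without day 6 replicate 3 and 4 without day 6 replicate 2 or day 19 replicate 3, and nuclear calls 1 without any single day 6 library or without day 19 replicate 2 or 3. Without day 19 replicate 1 the nuclear members called were 50 higher, against 27.2% of all genes, and 1 lower, NDUFS1, while the same 7 mitochondrial genes fell, against 27.0%, and ND2 rose. An F test of any difference among the 3 days called 5 mitochondrial members (ND4L, ND5, ND4, ATP8 and COX1) and 4 nuclear ones (NDUFB9, NDUFA5, NDUFS4 and NDUFV2), beside 19.6% of all genes.

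**Figure D2:**
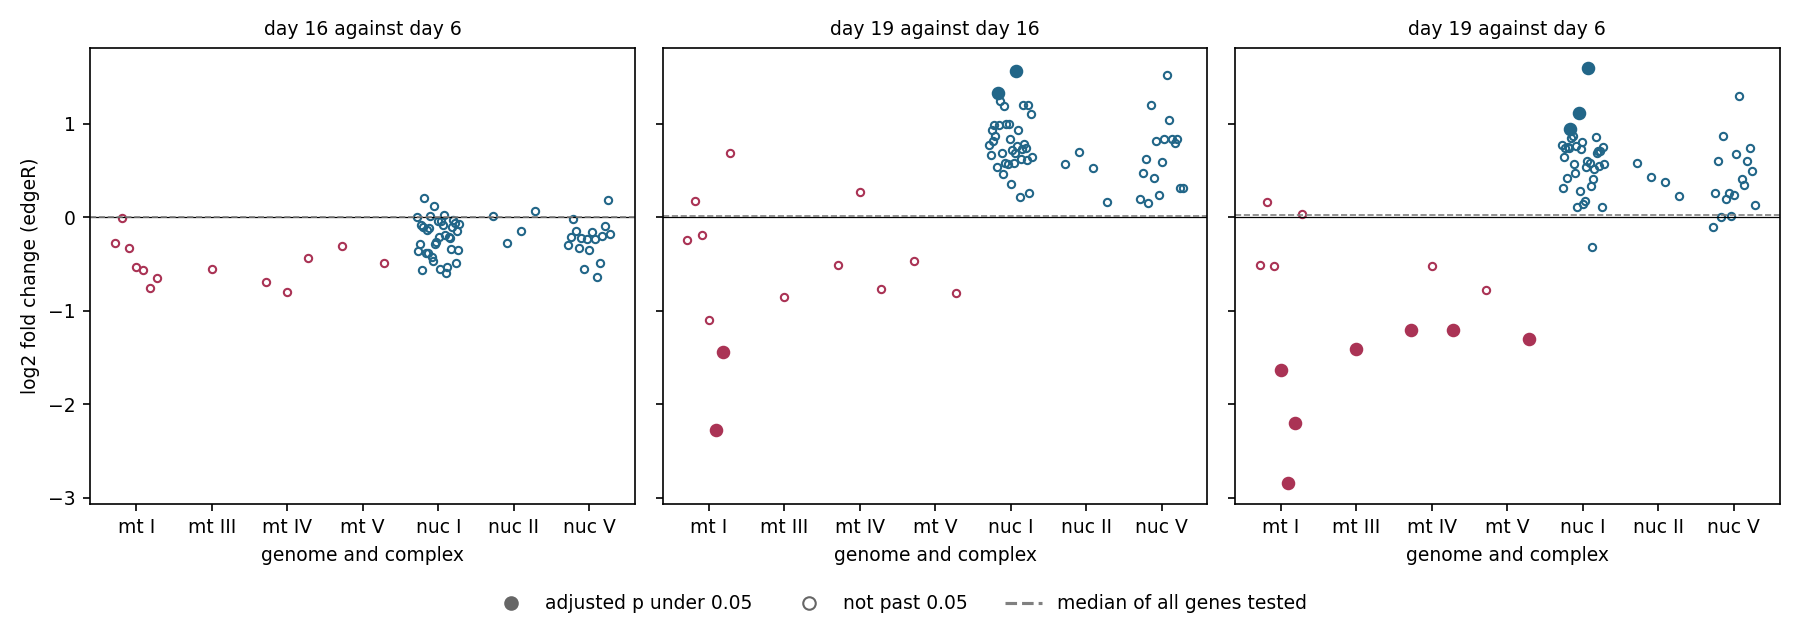
Fitted log2 fold change (edgeR) of each of the 70 members in the 3 comparisons, by genome (mt, mitochondrial; nuc, nuclear) and complex; filled points passed an adjusted p of 0.05 and the dashed line is the median of all genes tested. At day 19 the nuclear members lie mostly above the line, with medians of 0.73 and 0.57, and the mitochondrial members mostly below it, with medians of -0.51 and -1.20.

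Among the mitochondrial subunits of complex I, the proton-pumping membrane part of NADH dehydrogenase, ND4L had the largest fitted decrease. It stood at 215, 254 and 246 CPM in the day 6 libraries, 149.7, 179 and 154 at day 16, and 41.8, 30.4 and 27.4 at day 19, so the days did not overlap. The fall was -2.84 (SE 0.21) on the log2 scale from day 6 to day 19 and -2.28 (SE 0.20) from day 16 to day 19, with adjusted p-values of 7.67e-05 and 0.0121 (edgeR quasi-likelihood, Benjamini-Hochberg). The second call was lost without day 6 replicate 3, day 16 replicate 1 or day 16 replicate 3 (adjusted p up to 0.0843). ND4L was the only mitochondrial gene with a lower level in day 19 replicates 2 and 3 than in replicate 1. ND4L and ND4 lie on one bicistronic transcript with overlapping reading frames, so how the authors' counting divided reads between them bears on both, and this is not given in the sources used here.

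ND5, another subunit of the membrane part, was at 2185, 2357 and 2269 CPM at day 6, 1321, 1356 and 1341 at day 16, and 347, 563 and 566 at day 19. Each day lay wholly below the one before. From day 6 to day 19 the log2 change was -2.21 (SE 0.25, adjusted p = 0.000481), and from day 16 to day 19 -1.44 (SE 0.24, adjusted p = 0.0407; edgeR quasi-likelihood, Benjamini-Hochberg). The latter call was lost in each fit without 1 library other than day 19 replicate 1 (adjusted p up to 0.17). Its change between day 6 and day 16, -0.76 (SE 0.24), had the smallest adjusted p of any member in that comparison, 0.0858. ND4, its neighbour in the membrane arm, was at 3624, 3868 and 3688 CPM, then 2456, 2849 and 2399, then 719, 1467 and 1413, and its log2 change from day 6 to day 19 was -1.64 (SE 0.30, adjusted p = 0.00505; edgeR quasi-likelihood, Benjamini-Hochberg).

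The other mitochondrial complex I genes did not pass a test with all libraries. ND1 was at 189, 243 and 244 CPM at day 6, 211, 197 and 151 at day 16, and 64.2, 213 and 196 at day 19. ND3 was at 651, 736 and 750.1 CPM, then 449, 754 and 492, then 131, 639.7 and 714. In both genes the low day 19 value was that of replicate 1, and the other 2 libraries lay within or near the range of the earlier days. ND2 was at 166, 180.1 and 153 CPM, then 158, 170.3 and 166, then 48.9, 307 and 202, so that day 19 held both the lowest and the highest value. ND6 was measured at a low level, 2.16 to 6.78 CPM over the 9 libraries. It is encoded on the opposite strand from the other mitochondrial members, and whether the counting used strand is not given.

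CYTB, the only mitochondrially encoded subunit of complex III, was at 2999, 3321 and 3490.1 CPM at day 6, 2139, 2372 and 2164 at day 16, and 439.7, 1637 and 1613 at day 19. The days did not overlap, and day 19 replicate 1 was far below its 2 companions. The log2 change from day 6 to day 19 was -1.41 (SE 0.43, adjusted p = 0.0419), and its adjusted p was 0.00047 without day 19 replicate 1 (edgeR quasi-likelihood, Benjamini-Hochberg). Leaving out any other single library raised the adjusted p above the threshold, to at most 0.112.

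Complex IV, cytochrome c oxidase, has its catalytic core from the mitochondrial genome. COX1, the subunit that holds the oxygen-reducing centre, was at 7691, 8673 and 9951 CPM at day 6, 5523, 4732 and 5963 at day 16, and 2591, 4775 and 3997 at day 19. Day 6 lay above both later days, which overlapped each other, and the log2 change from day 6 to day 19 was -1.21 (SE 0.30, adjusted p = 0.0176; edgeR quasi-likelihood, Benjamini-Hochberg). COX3, a core subunit without metal centres, was at 3086, 3402 and 3502 CPM, then 2282, 2783 and 2323, then 742, 1854 and 1742. It fell by 1.20 on the log2 scale from day 6 to day 19 (SE 0.34, adjusted p = 0.0311; edgeR quasi-likelihood, Benjamini-Hochberg) and showed no overlap between days. COX1 missed the threshold when day 6 replicate 2, day 6 replicate 3 or day 19 replicate 3 was left out (adjusted p up to 0.0754), and the COX3 call without any day 6 library, day 16 replicate 1 or day 19 replicate 3 (up to 0.0946). COX2, which accepts electrons from cytochrome c, followed another course, at 1804, 2007 and 2458 CPM, then 1418, 1005 and 1187, then 449, 2217 and 1696. Day 19 thus held COX2 values below and above all day 16 libraries, and no comparison with all libraries called it.

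For complex V, ATP6, which forms the proton path of ATP synthase, was at 3460.3, 4057 and 4088 CPM at day 6, 3037, 3319.8 and 3034 at day 16, and 979, 3094 and 2691 at day 19. Day 19 replicates 2 and 3 lay near the day 16 range, and ATP6 was not called in any comparison. ATP8, a small subunit encoded by a reading frame that overlaps that of ATP6, was at 264, 354 and 353 CPM, then 191, 251 and 248, then 75.0, 156 and 163. It fell by 1.30 on the log2 scale from day 6 to day 19 (SE 0.30, adjusted p = 0.0135; edgeR quasi-likelihood, Benjamini-Hochberg), a call lost without day 6 replicate 3 (adjusted p = 0.051). In all, 6 of 13 mitochondrial genes (ND4L, ND4, ND5, CYTB, COX3 and ATP8) went down in order from day 6 to day 16 to day 19 without overlap, as did 2.81% of all genes and 0 nuclear members. No member went up in that order, as 2.66% of all genes did.

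Mitochondrial genes share precursor transcripts, and their proportions to each other could be followed within each library. Per 100 ND4 counts there were 5.94, 6.57 and 6.68 ND4L counts at day 6, 6.10, 6.29 and 6.41 at day 16, and 5.82, 2.07 and 1.94 at day 19. Day 19 replicate 1 lay near the earlier libraries, with an exact 95% interval of 5.27 to 6.41, while replicates 2 and 3 had about 3 times fewer, with intervals of 1.85 to 2.32 and 1.71 to 2.19. These intervals cover counting error only. COX2 went the other way in the same 2 libraries: per 100 COX1 counts there were 23.5, 23.1 and 24.7 at day 6, 25.7, 21.2 and 19.9 at day 16, and 17.3, 46.4 and 42.4 at day 19. ND5 per 100 ND4 counts was 60.3, 60.9 and 61.5 at day 6, 53.8, 47.6 and 55.9 at day 16, and 48.3, 38.4 and 40.1 at day 19. ATP8 per 100 ATP6 counts was 7.64, 8.73 and 8.64 at day 6, 6.27, 7.57 and 8.19 at day 16, and 7.65, 5.03 and 6.07 at day 19. Each of these proportions in day 19 replicates 2 and 3 was thus displaced from replicate 1, in the same direction in both libraries. These proportions were chosen after the levels had been seen and were not tested.

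**Figure D3:**
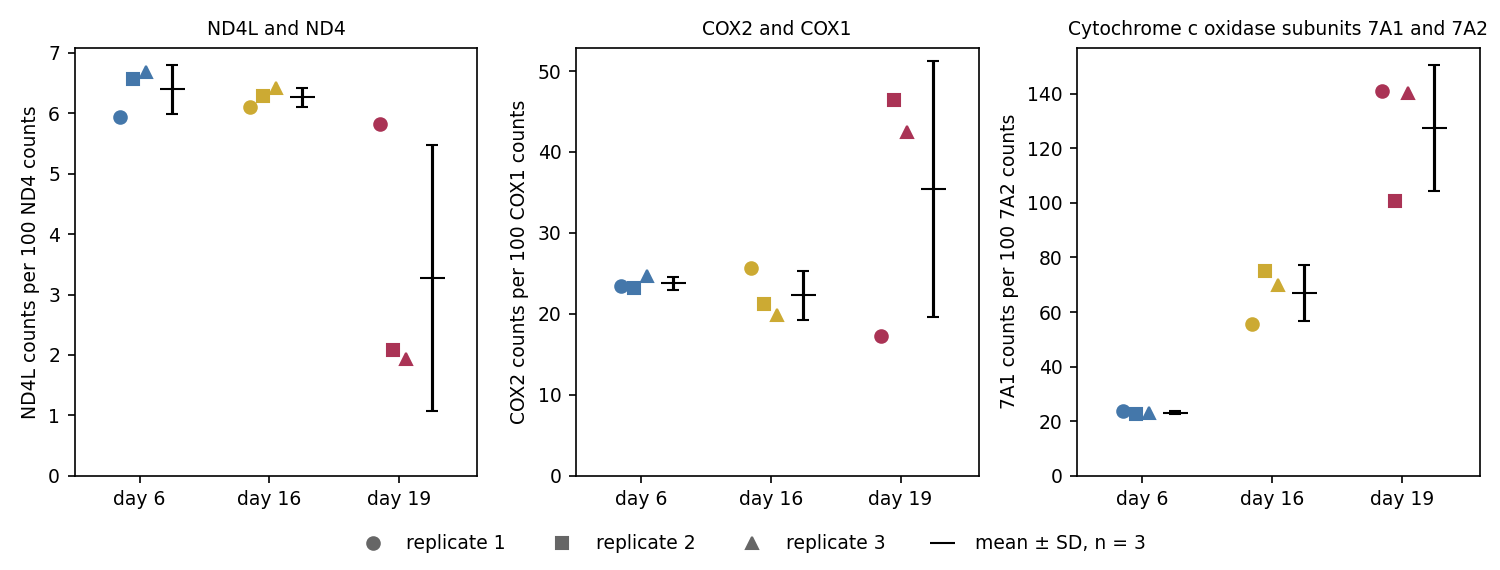
Counts of ND4L per 100 of ND4, of COX2 per 100 of COX1, and of cytochrome c oxidase subunit 7A1 per 100 of subunit 7A2, for each library by day, with mean ± SD (n = 3). Day 19 replicates 2 and 3 depart from replicate 1 for ND4L (2.07 and 1.94 against 5.82) and COX2 (46.4 and 42.4 against 17.3), whereas subunit 7A1 is higher in all 3 day 19 libraries than on earlier days.

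Among the 57 nuclear members, those called were all of complex I. NDUFB9, an accessory subunit of the membrane arm, was at 50.0, 52.8 and 51.8 CPM at day 6, 55.3, 49.9 and 51.9 at day 16, and 79.8, 198 and 188 at day 19. Every day 19 library exceeded every earlier one, with replicate 1 the nearest to them. The log2 change was 1.57 (SE 0.30) against day 16 and 1.59 (SE 0.30) against day 6, with adjusted p-values of 0.0468 and 0.00574 (edgeR quasi-likelihood, Benjamini-Hochberg). NDUFA5, an accessory subunit of the matrix arm, was at 15.1, 14.9 and 13.2 CPM, then 12.5, 12.4 and 8.38, then 19.7, 34.7 and 29.1. It also had no overlap, with log2 changes of 1.33 (SE 0.26, adjusted p = 0.0492) against day 16 and 0.95 (SE 0.26, adjusted p = 0.0263) against day 6 (edgeR quasi-likelihood, Benjamini-Hochberg). Both calls against day 16 were lost in each fit without 1 library other than day 19 replicate 1 (adjusted p up to 0.177 and 0.181). The NDUFA5 call against day 6 was lost without any day 6 library or without day 19 replicate 2 or 3 (up to 0.0997), while the NDUFB9 call held in all 9 such fits.

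NDUFB11, a further accessory subunit of the membrane arm, was at 82.5, 82.4 and 80.2 CPM at day 6, 94.0, 88.4 and 84.8 at day 16, and 79.6, 229.6 and 224 at day 19. Its log2 change from day 6 to day 19 was 1.12 (SE 0.34, adjusted p = 0.0394; edgeR quasi-likelihood, Benjamini-Hochberg), yet replicate 1 lay below all earlier libraries, and the call was lost in each fit without 1 library other than day 19 replicate 1 (adjusted p up to 0.127). The next 2 genes were chosen after their values were seen. NDUFS4, a matrix-arm subunit needed for stable complex I, differed among the days in the F test at 27.2, 28.8 and 33.1 CPM, then 24.7, 23.0 and 22.5, then 31.1, 73.9 and 56.2. NDUFV2, an iron-sulphur subunit of the NADH-oxidizing part, did so at 5.75, 7.20 and 8.47, then 6.10, 4.78 and 5.85, then 8.24, 13.2 and 14.6. Both stood above day 16 in all day 19 libraries. Against day 16 their adjusted p-values were 0.0666 and 0.0813 in edgeR and 0.00444 and 0.0126 in DESeq2.

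Other complex I members were high in day 19 replicates 2 and 3 and not in replicate 1. NDUFA13, an accessory subunit also known as GRIM-19, was at 109, 89.0 and 92.2 CPM at day 6, 68.4, 63.8 and 64.6 at day 16, and 55.4, 166 and 167 at day 19. NDUFS5, on the intermembrane side, was at 130.2, 147 and 139, then 137, 96.8 and 155, then 83.0, 306 and 279. Replicate 1 was the lowest of all 9 libraries for NDUFA13 and NDUFS5, and neither was called with all libraries. NDUFC2, of the membrane arm, was at 13.7, 14.5 and 16.0, then 11.0, 8.42 and 9.73, then 11.2, 25.2 and 19.1 CPM, with the largest fitted decrease of a nuclear complex I member from day 6 to day 16, -0.60 (SE 0.29, adjusted p = 0.28; edgeR quasi-likelihood, Benjamini-Hochberg). NDUFS1, the large iron-sulphur subunit of the matrix arm, and chosen after its values were seen, broke the pattern, at 71.6, 65.0 and 64.3, then 51.5, 47.4 and 39.7, then 71.9, 47.6 and 42.0 CPM. It was the only nuclear member whose highest day 19 value came from replicate 1.

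Complex II, succinate dehydrogenase, is encoded by nuclear genes alone and also belongs to the citric acid cycle. SDHA, the flavoprotein that oxidizes succinate, was at 143, 125 and 136 CPM at day 6, 145, 139 and 121 at day 16, and 143, 239.7 and 219.6 at day 19. SDHB, the iron-sulphur subunit, was at 97.0, 95.8 and 91.9, then 84.4, 76.1 and 75.2, then 76.1, 160.0 and 147. SDHC, a membrane anchor, was at 101, 99.7 and 97.1, then 90.5, 99.3 and 78.3, then 86.4, 159 and 139.8. In each, replicates 2 and 3 of day 19 exceeded all earlier libraries and replicate 1 was within the earlier range. With all libraries edgeR called 0 of the 4 complex II genes (median log2 fold change 0.55 against day 16 and 0.40 against day 6). At an unadjusted p under 0.05 there were 3 against day 16, beside 24.5% of all genes, and 1 against day 6, beside 6138 of 16098 genes. DESeq2 called SDHA against day 6 (adjusted p = 0.0491), where it called 2666 genes higher. In edgeR without day 19 replicate 1, SDHA, SDHB and SDHC were called against both days, beside 21.6% and 27.2% of all genes called higher.

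Of the nuclear members assigned to complex V by symbol, ATP5S and ATP5SL among them, edgeR called 0 of 17 with all libraries in each comparison. At an unadjusted p under 0.05 there were 9 against day 16, beside 24.5% of all genes, and 5 against day 6, beside 6138 of 16098 genes. DESeq2 called ATP5I, ATP5J and ATP5E against day 16 (adjusted p = 0.019, 0.0183 and 0.0309), beside 5.67% of all genes called higher. It called ATP5I against day 6 (adjusted p = 0.0258), where it called 2666 genes higher. ATP5A1, the alpha subunit, was at 427, 399 and 419 CPM at day 6, 377, 326 and 309.8 at day 16, and 294, 463 and 403 at day 19. ATP5B, the catalytic beta subunit, was at 542, 534 and 559.6, then 510.1, 489.6 and 415, then 458, 753 and 748. ATP5C1, the gamma subunit of the rotor, was at 163, 180.2 and 172, then 187, 164 and 158, then 155, 352 and 278. Replicate 1 of day 19 was the lowest of all 9 libraries in these 3 genes except ATP5B. ATP5I, which encodes the e subunit involved in dimer formation, was at 34.9, 45.7 and 40.7 CPM, then 36.2, 34.4 and 32.9, then 29.6, 145 and 124. It had the largest fitted change of complex V against day 16, 1.53 (SE 0.46), but its adjusted p was 0.106, and 2.47e-05 without day 19 replicate 1 (log2 change 1.97; edgeR quasi-likelihood, Benjamini-Hochberg).

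ATP5E, the epsilon subunit of the rotor, was at 33.3, 42.1 and 37.1 CPM at day 6, 35.2, 25.6 and 28.7 at day 16, and 29.9, 101 and 75.1 at day 19. ATP5J, a coupling subunit of the stalk, was at 38.7, 37.2 and 45.2, then 30.5, 24.2 and 23.2, then 31.0, 72.0 and 57.7, and had the largest fitted decrease of a nuclear member from day 6 to day 16, -0.63 (SE 0.29, adjusted p = 0.244; edgeR quasi-likelihood, Benjamini-Hochberg). Day 19 exceeded day 16 in every library for ATP5J, and in replicates 2 and 3 alone for ATP5E. The genes ATP5G1, ATP5G2 and ATP5G3 encode the same mature c subunit of the membrane ring, so reads they share would make their separate counts uncertain. ATP5G1 was at 67.5, 67.5 and 57.1, then 51.5, 40.5 and 38.3, then 35.8, 93.8 and 100.3 CPM. ATP5G2 was at 112, 184 and 179, then 123, 146 and 136, then 53.7, 207 and 218, and ATP5G3 at 144, 145 and 166, then 141, 118 and 96.9, then 96.5, 228 and 212. Replicate 1 was the lowest of all 9 libraries for each of the 3.

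Each day 19 library was then set against the mean of the day 16 libraries, gene by gene on the log2 CPM scale. In replicate 1 the median difference was -1.72 over the mitochondrial members and -0.11 over the nuclear members. In replicates 2 and 3 it was -0.17 and -0.43 over the mitochondrial and 1.11 and 0.96 over the nuclear members. The median over all genes tested was -0.00, -0.01 and -0.01 in replicates 1, 2 and 3. The mitochondrial median thus lay below the nuclear one in each library, with low mitochondrial levels in replicate 1 and high nuclear levels in replicates 2 and 3.

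Counted against the range of the day 16 libraries, 12 of 13 mitochondrial genes were below it in replicate 1, where 33.8% of all genes were, 6 in replicate 2 (39.8%) and 8 in replicate 3 (39.6%). Of the 57 nuclear members, 56 were above it in replicate 2 (38.5% of all genes) and 56 in replicate 3 (38.8%). In replicate 1, 11 were above (33.0%) and 28 below. The member outside the count in replicates 2 and 3 was NDUFS1, whose differences were 0.64, 0.05 and -0.13 in replicates 1, 2 and 3. The largest nuclear differences were those of ATP5I, 2.06 and 1.84 in replicates 2 and 3 against -0.22 in replicate 1, and of NDUFB9, 1.92 and 1.84 against 0.61. ATP5G2 had the lowest nuclear value in replicate 1, -1.32, against 0.62 and 0.69.

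**Figure D4:**
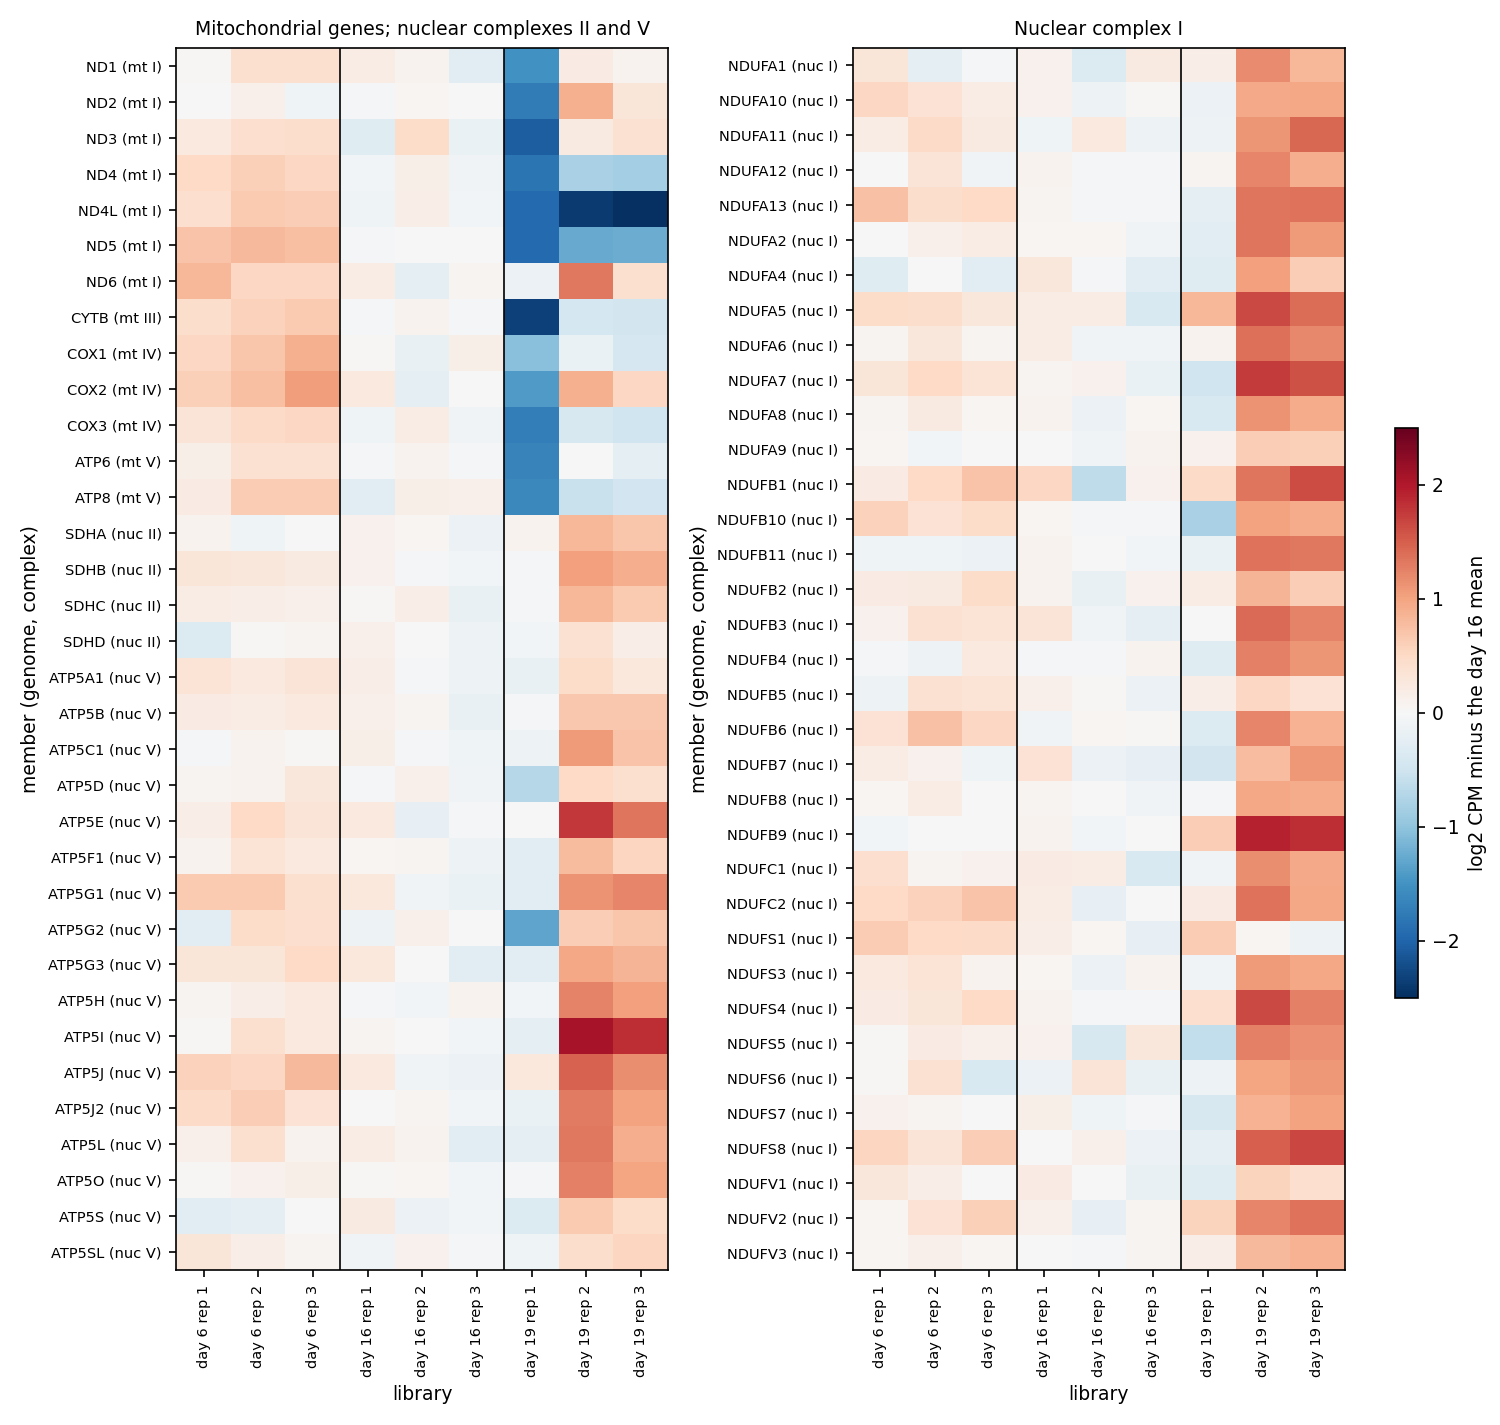
Log2 CPM minus the day 16 mean for the members (rows, with genome and complex; 1 of the 70 is not shown) in the 9 libraries (columns), from blue (lower) to red (higher). Nuclear members are red in day 19 replicates 2 and 3 with medians of 1.11 and 0.96, and mitochondrial members are blue in replicate 1 with a median of -1.72, medians being over all members.

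In replicates 2 and 3 the mitochondrial genes lay on both sides of their day 16 levels. Relative to day 16, COX2 differed by 0.90 and 0.51, ND2 by 0.89 and 0.29 and ND6 by 1.33 and 0.41, while ND4 differed by -0.80 and -0.86, ND5 by -1.25 and -1.24 and ND4L by -2.39 and -2.54. In replicate 1 the same 6 genes differed by -1.41, -1.75, -0.14, -1.83, -1.95 and -1.93. The mitochondrial differences thus ran from -2.34 to -0.14 in replicate 1, from -2.39 to 1.33 in replicate 2 and from -2.54 to 0.51 in replicate 3. Against the day 6 mean, the difference was negative for ND1, ND4, ND5, ND4L, CYTB, COX1, COX3, ATP6 and ATP8 in all 3 libraries.

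**Figure D5:**
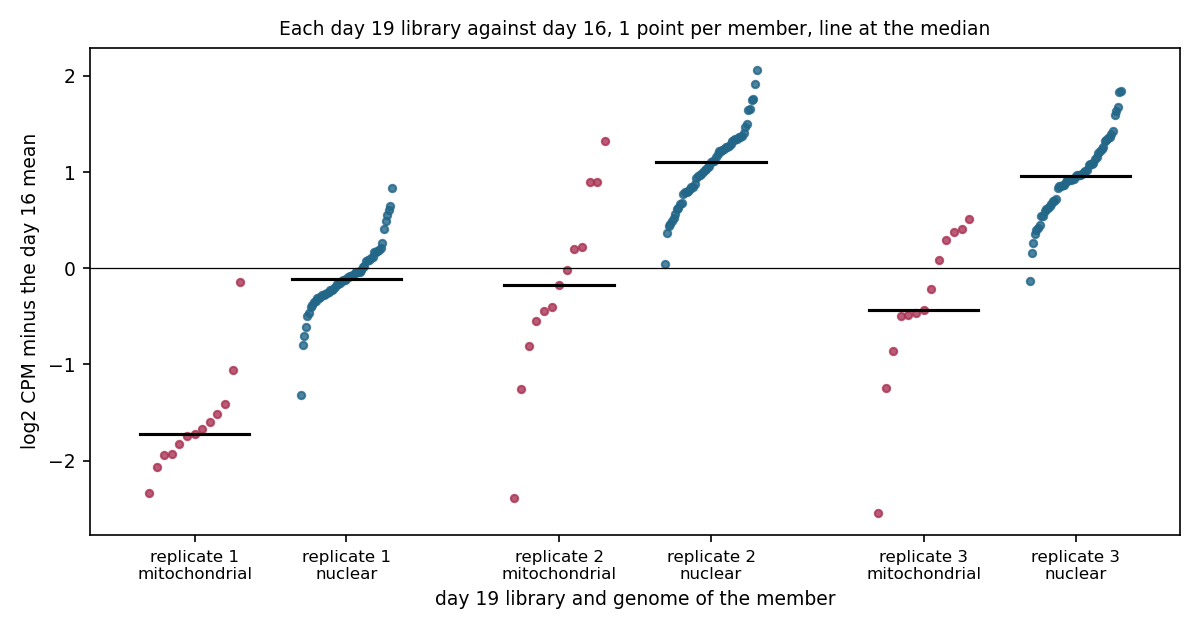
Difference of each member's log2 CPM from the day 16 mean in each day 19 library, ordered by size, for mitochondrial (red) and nuclear (blue) members; the black line is the median. Nuclear medians are -0.11, 1.11 and 0.96 and mitochondrial medians -1.72, -0.17 and -0.43 in replicates 1, 2 and 3.

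The marker sums also differed among the day 19 libraries. Summed smooth muscle markers were 22566, 24907 and 40807 CPM in replicates 1, 2 and 3 (18484 to 19410 at day 16, 7896 to 29493 at day 6) and summed macrophage markers 426, 602 and 511 CPM (249 to 326 at day 16, 166 to 298 at day 6). Epithelial markers summed to 762, 1382 and 996 CPM (1141 to 1163 at day 16, 661 to 738 at day 6) and endothelial markers to 742, 688 and 628 CPM (1067 to 1348 at day 16, 806 to 1000.2 at day 6). Of the markers tested at day 19 against day 6, 1 of 6 for smooth muscle, 3 of 4 for macrophages, 1 of 5 for epithelium and 0 of 5 for endothelium were called, all higher. Beside these, 12.7% of all genes were called higher. The part of the markers in the differences among members was not tested. Ribosomal protein genes also differed between replicate 1 and the other 2 day 19 libraries. Of 73 cytosolic ones, 72 were above the day 16 range in each of replicates 2 and 3, beside 38.5% and 38.8% of all genes. In replicate 1, 68 were below it, beside 33.8%. Their medians were 0.95, 0.73 and -0.62 in replicates 2, 3 and 1. Of 73 mitochondrial ones, encoded in the nucleus, 68 and 69 were above the day 16 range in replicates 2 and 3. In replicate 1, 19 were above it, beside 33.0% of all genes, and 22 below it, beside 33.8%. Tests called few of the cytosolic genes: 2 of 73, RPS9 and RPS28, rose from day 6 to day 19, beside 12.7% of all genes. Both calls were lost without any day 6 library or without day 19 replicate 2 or 3. From day 16 to day 19 edgeR called 0 cytosolic genes, with 9 at an unadjusted p under 0.05 (24.5% of all genes). DESeq2 called 1 and voom 62, all these calls higher, beside 5.67% and 22.0% of all genes. From day 6 to day 16 edgeR called 0 (8.86% of all genes), with 0 at an unadjusted p under 0.05 (21.1%). In that comparison DESeq2 called 0 and voom 3, where they called 2235 and 3783 of all genes. Of the 73 mitochondrial ones 20 rose and 1 fell from day 6 to day 19, beside 12.7% and 10.2% of all genes, with MRPL32, a protein of the large subunit, at 5.19 ± 0.227, 11.5 ± 2.83 and 17.6 ± 1.95 CPM on days 6, 16 and 19.

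Complexes III and IV were covered by 8 and 13 tested rows that the table names by locus and description, outside the members. Of the complex III rows, 1 rose from day 6 to day 19 (12.7% of all genes did), cytochrome b-c1 subunit 9 (LOC102187154), from 64.3 ± 4.02 to 149 ± 72.8 CPM. The 8 rows had a median log2 fold change of 0.60 against day 16 and 0.55 against day 6. Of the complex IV rows, 3 rose and 1 fell from day 6 to day 19, beside 12.7% and 10.2% of all genes, and their medians were 0.73 and 0.67. Subunits 5A (LOC102191741, from 29.1 ± 1.13 to 52.0 ± 18.5 CPM) and 5B (LOC102179291, from 139 ± 6.13 to 311 ± 162 CPM; SD, n = 3) rose. The subunit 9, 5A and 5B calls had adjusted p-values of 0.0307, 0.0452 and 0.0464 (edgeR quasi-likelihood, Benjamini-Hochberg) and were each lost without any day 6 library, day 16 replicate 1, or day 19 replicate 2 or 3. These day 19 medians are near those of the nuclear members. From day 6 to day 16 the medians were 0.13 for the complex III rows and -0.03 for the complex IV rows, against -0.21 for the nuclear members. In that comparison 5 of 8 and 5 of 13 rows were fitted higher, against 8 of 57 nuclear members.

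The third complex IV row that rose was subunit 7A1 (LOC102175610), known as the isoform of heart and skeletal muscle, which was at 9.92, 9.57 and 10.6 CPM at day 6, 21.7, 24.0 and 17.3 at day 16, and 47.3, 84.9 and 89.8 at day 19. It rose at each step without overlap, including in day 19 replicate 1. Its log2 change was 1.06 (SE 0.26, adjusted p = 0.0342) to day 16, 1.82 (SE 0.26, adjusted p = 0.0377) from day 16 to day 19 and 2.88 (SE 0.27, adjusted p = 0.000219) over the whole span (edgeR quasi-likelihood, Benjamini-Hochberg). The first call was lost without any day 6 library or without day 16 replicate 1 or 2 (adjusted p up to 0.128), and the second without any library other than day 19 replicate 1 (up to 0.17). Its alternative, subunit 7A2 (LOC102188675), the widely expressed isoform, was at 41.5, 42.1 and 46.5, then 39.0, 32.0 and 24.7, then 33.6, 84.4 and 64.0 CPM. Per 100 counts of 7A2 there were 23.9, 22.7 and 22.9 counts of 7A1 at day 6, 55.5, 75.1 and 70.1 at day 16, and 141, 101 and 140.3 at day 19.

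The smooth muscle marker sum, 7896 to 29493 CPM at day 6 and 18484 to 19410 at day 16, did not separate those days. At day 19 it was 22566, 24907 and 40807 CPM, above every day 16 library, and 4 of 6 markers lay above day 16 without overlap (11.9% of all genes). Its part in the 7A1 difference was not tested. The sum of cardiac and skeletal muscle markers was 43.0 to 144, 38.5 to 92.7 and 49.9 to 97.9 CPM at days 6, 16 and 19. For subunit 4, the hypoxia-linked isoform 2 (LOC102179296) fell from day 6 to day 19. It was at 9.83, 7.41 and 12.2 CPM at day 6, 7.99, 9.44 and 12.1 at day 16, and 3.49, 5.19 and 4.23 at day 19, below every earlier library. The log2 change was -1.19 (SE 0.29, adjusted p = 0.0182; edgeR quasi-likelihood, Benjamini-Hochberg), and missed the threshold when day 6 replicate 1, day 6 replicate 3 or day 19 replicate 3 was left out (adjusted p up to 0.0803).

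Genes that assemble the complexes or express the mitochondrial genome were taken from lists made alongside the members. Of 24 assembly factors tested, 6 rose and 0 fell from day 6 to day 19, beside 12.7% and 10.2% of all genes. NDUFAF5, a complex I assembly factor, rose from 4.47 ± 0.508 CPM at day 6 to 9.48 ± 2.54 at day 16 and 12.5 ± 1.66 at day 19. TTC19, which serves complex III, rose from 29.5 ± 2.13 CPM to 56.2 ± 6.38 at day 19, and TMEM70, which serves ATP synthase, from 17.9 ± 1.95 to 34.2 ± 4.19 (SD, n = 3 each). Their day 19 replicate 1 values, 13.3, 49.3 and 29.4 CPM, were above all day 6 libraries. The day 16 call of NDUFAF5 was lost without any day 6 library, day 16 replicate 1 or 2, or day 19 replicate 2 (adjusted p up to 0.15; edgeR quasi-likelihood, Benjamini-Hochberg), while the day 19 calls of these 3 genes held in all 9 fits without 1 library. The list's median was 0.44 against day 16, with 20 of 24 fitted higher. In that comparison edgeR called 0, with 7 at an unadjusted p under 0.05, beside 24.5% of all genes. DESeq2 called 4, beside 5.67% of all genes higher and 4.78% lower, and voom 11, beside 22.0% higher and 23.3% lower.

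Of 27 tested genes of mitochondrial DNA maintenance, transcription and RNA processing, 2 rose from day 6 to day 16, 3 rose from day 6 to day 19 and 0 fell. These shares are near those of all genes called higher, 5.12% and 12.7%, and single genes are given as a description. PNPT1, an exoribonuclease of mitochondrial RNA that is also induced by interferon, was at 22.9, 26.5 and 26.2 CPM at day 6, 112, 183 and 59.8 at day 16, and 268, 111 and 89.5 at day 19. All later libraries exceeded day 6, and replicate 1 was the highest at day 19. Its log2 changes from day 6 were 2.23 (SE 0.48, adjusted p = 0.0198) and 2.63 (SE 0.49, adjusted p = 0.00545; edgeR quasi-likelihood, Benjamini-Hochberg), the first lost without any day 6 library or day 16 replicate 1 or 2 (adjusted p up to 0.0841). MTPAP, which adds poly(A) tails to mitochondrial transcripts, rose from 16.5 ± 1.20 to 25.7 ± 3.65 CPM at day 19, and MTERF2, a regulator of mitochondrial transcription, from 4.85 ± 0.734 to 10.2 ± 1.36 CPM (SD, n = 3 each). TFEB, a transcription factor of lysosome and mitochondrial biogenesis, rose from 8.04 ± 1.39 to 15.4 ± 2.96 CPM at day 16. The calls of MTPAP, MTERF2 and TFEB were each lost in at least 2 fits without 1 library, without day 6 replicate 3 in every case (adjusted p up to 0.122, 0.0593 and 0.15). The libraries were made from poly(A)-selected RNA, per the labels' protocols. Those mitochondrial transcripts that carry poly(A) tails enter them through the tails, so tail length and transcript level cannot be told apart here.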

How the data were processed

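RNA-seq libraries from 9 goat uterus samples, 3 for each of day 6, 16 and 19, were made from poly(A)-selected RNA for Ion Proton sequencing, per the labels' protocols. The authors deposited 1 table of whole-number read counts per gene. For the aligner, counting program, genome build and strand setting, nothing is stated in the labels or the file. Rows named no total and no unassigned class. The members, gene lists and markers were chosen with earlier results of these data known.

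Tests on these counts used edgeR 4.0.16 under R 4.3.3 (TMM scaling, filterByExpr by day, robust quasi-likelihood fit over all 9 libraries with day as the only term, Benjamini-Hochberg adjustment over the 16098 genes tested). DESeq2 1.42.0 and voom in limma 3.58.1 were alternatives, beside other scalings, filters and each library left out. Log2 CPM used a prior count of 2. Shares and ratios are raw counts with exact or Wilson 95% intervals. The named genes were all mitochondrial members, nuclear members that were called, the 3 most abundant and the 2 with the largest change per complex, the ATP5G genes, and up to 4 called genes per list and comparison; 1 nuclear member that this rule names is not reported here. Sums and medians over members have no test. No 2 libraries of a day agreed within sampling noise (lowest chi-square per degree of freedom 9.86). On simulated counts for day 16 against day 6 (15866 genes, 198 changed) the test recovered 58.6% of 4-fold and 4.04% of 2-fold changes, with 4 false calls among 66.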

Additional observations from a re-analysis of the deposited data

How the results depend on the processing

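The labels do not say whether replicate numbers pair the libraries. Correlations of deviations over 9 same-numbered pairs ran from -0.164 to 0.153, with 1 over 0.1, and a pair of different numbers reached 0.2. Deviations from a mean of 3 libraries depend on each other, so these correlations cannot settle pairing. With the number as a replicate block, 0 nuclear, 0 mitochondrial and 0 of all genes were called from day 16 to day 19, and 2 nuclear members among the 3 days. With only the 2 days compared, calls of nuclear, mitochondrial and all genes were 9, 6 and 3092 at day 16 against day 6, 0, 0 and 0 at day 19 against day 16, and 1, 4 and 2357 at day 19 against day 6. DESeq2 called 1 mitochondrial member and 2235 genes in the first, 12 nuclear members and 1680 genes in the second, 8 nuclear members in the third, and 12 nuclear members and 5032 genes among the days. With voom, calls were 8, 8 and 3783, then 52, 6 and 7291, then 52 nuclear members and 9405 genes, and 52, 8 and 10557 among the days. Leaving out 1 library gave 0 to 9, 0 to 6 and 664 to 3345 calls, then 0 to 54, 0 to 9 and 0 to 7331, then 1 to 51, 3 to 8 and 1928 to 8891, and among the days 1 to 54, 2 to 9 and 1416 to 9703. The highest count came without day 19 replicate 1 for members in each case. The cause was not tested.

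Without 1 library, log2 changes of the nuclear total were -0.27 to -0.22, 0.21 to 0.72 and -0.03 to 0.48 in the 3 comparisons, of the mitochondrial total -0.63 to -0.55, -1.13 to -0.50 and -1.72 to -1.09, and of their ratio -0.40 to -0.29, -1.35 to -1.21 and -1.69 to -1.57. As medians over members the ratio changed by -0.54, -1.70 and -2.25 and the mitochondrial level from day 6 to day 19 by -1.90. Scaling by library totals moved the median of all genes by -0.09, -0.18 and -0.20 in day 19 replicates 1, 2 and 3 against day 16. Against day 16 the nuclear medians were then -0.20, 0.93 and 0.75 and the mitochondrial ones -1.82, -0.36 and -0.64. Against day 6 they were -0.42, 0.62 and 0.52, and -2.30, -1.07 and -1.18. Of 972 alternatives for 54 single-gene results, 738 stayed on their side of the threshold, 234 lost the call and 0 turned direction. The alternatives for the totals, without ND4L and ATP8 and with the complex III and IV rows, were chosen after seeing the data.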

Other observations

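Fuel pathways upstream of oxidative phosphorylation were read from lists of 17 citric acid cycle genes and 20 glycolysis genes tested. The first list included subunits of pyruvate dehydrogenase, and the second its kinases, PDK4 among them. From day 6 to day 19, 0 citric acid cycle genes rose and 2 fell, a share near the 10.2% of all genes that fell. Both encode parts of the 2-oxoglutarate dehydrogenase complex. OGDH, its first enzyme, was at 1445, 1436 and 1334 CPM at day 6, 537, 244 and 406 at day 16, and 255, 205 and 223 at day 19. It fell by 1.83 on the log2 scale to day 16 (SE 0.29) and by 2.62 to day 19 (SE 0.29), with adjusted p-values of 0.00407 and 0.000485 (edgeR quasi-likelihood, Benjamini-Hochberg). DLST, its second enzyme, was at 119, 133 and 112, then 82.8, 81.5 and 81.0, then 70.1, 44.4 and 45.1 CPM, and fell by 1.19 from day 6 to day 19 (SE 0.20, adjusted p = 0.00341; edgeR quasi-likelihood). MRPS36, listed as a mitochondrial ribosomal protein and also known as a component of the same enzyme complex, was at 31.5, 41.4 and 28.9, then 1.37, 0.228 and 0.81, then 0.776, 3.39 and 2.22 CPM. It fell by 5.37 to day 16 (SE 0.60, adjusted p = 0.000707) and by 3.99 to day 19 (SE 0.54, adjusted p = 0.00115; edgeR quasi-likelihood). Each of these 5 calls held in all 9 fits without 1 library, and the 3 genes were set side by side after their values were seen.

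Of the genes on the glycolysis list, 3 rose and 3 fell from day 6 to day 16, beside 5.12% and 3.74% of all genes. From day 6 to day 19, 7 rose and 2 fell, beside 12.7% and 10.2%. ALDOC, an aldolase, was among those that fell to day 16, by -2.49 to -1.90 on the log2 scale without 1 library. PFKM, a phosphofructokinase, fell to day 19 (-1.45 to -1.10), and PFKP, another, rose (1.01 to 1.29). ENO2, an enolase, was at 145, 99.1 and 124 CPM at day 6, 138, 157 and 112 at day 16, and 618, 464 and 489 at day 19, so that all day 19 libraries, replicate 1 included, lay above the rest. Its log2 change from day 6 was 2.09 (SE 0.23, adjusted p = 0.000387; edgeR quasi-likelihood, Benjamini-Hochberg). PGK1, phosphoglycerate kinase, was at 101, 88.5 and 91.2, then 233, 269 and 124, then 366, 349.7 and 297 CPM, and rose by 1.85 to day 19 (SE 0.27, adjusted p = 0.00177; edgeR quasi-likelihood). PDK4, which inhibits pyruvate dehydrogenase, was at 57.9, 60.5 and 79.0, then 214, 389 and 179.6, then 324, 151 and 131 CPM. It rose to day 16 and to day 19 with adjusted p-values of 0.0149 and 0.0186, up to 0.0694 and 0.0742 without 1 library. HK2, a hexokinase, fell from 21.8 ± 6.20 CPM at day 6 (SD, n = 3) to 7.01 ± 2.57 at day 16 and 7.96 ± 3.72 at day 19, with adjusted p-values up to 0.124 and 0.102 without 1 library.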
